A study of Mus musculus with 4 samples.

Results

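The Hox cluster genes are the 39 protein-coding genes of the mouse RefSeq annotation (GRCm38.p6) whose symbols are Hoxa, Hoxb, Hoxc or Hoxd followed by a number, out of 21887 protein-coding genes in all. They lie in 4 clusters and belong to 13 paralog groups, numbered by their place in the cluster. BRG1 and BRM are alternative ATPases of the chromatin remodeller BAF (also called SWI/SNF), and the J1 antibody recognizes both. Their occupancy was measured by chromatin immunoprecipitation and sequencing (ChIP-seq) in wild-type cortical neurons from E16.5 mouse embryos. The neurons had been cultured for 6 days. One group was depolarized with 50 mM KCl for 1 h on that day, after tetrodotoxin (TTX, 1 µM, a sodium channel blocker) and APV (100 µM, an NMDA receptor antagonist) on day 5, and the other group was kept at the basal KCl level. Whether the basal group was given TTX and APV is not stated in the labels. Each condition had 1 immunoprecipitated (IP) library and 1 input library, so differences between KCl and basal have no replicates behind them and are given without p-values. The values are the authors' lists of enriched regions, called islands, on build mm10 (GRCm38). The KCl list held 20966 islands with 1433200 IP reads, and the basal list 711 islands with 142021 IP reads. How deeply the libraries were sequenced in total is unknown here.

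Hox genes encode homeodomain transcription factors that assign position along the head-to-tail axis of the embryo. Within a cluster, low-numbered genes are active farther toward the head than high-numbered genes, and the forebrain, which gives rise to the cortex, lies in front of the embryonic domains of Hox expression. Silent Hox clusters are a classic target of Polycomb group repressors, and Trithorax group proteins act against that repression. In Drosophila, the gene for the BRG1/BRM orthologue Brahma was found as a Trithorax group gene.

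No Hox gene carried a BRG1/BRM island in either condition. In KCl neurons, islands came within 2 kb of either end of 0 of 39 Hox genes, against 25.2% of all protein-coding genes (5512 of 21887). In basal neurons, 0 of 39 had one, against 0.411% of all protein-coding genes (90 of 21887), and with so few basal calls a count of 0 is close to that background. Hox genes are short, from 1784 bp at Hoxc12 to 44009 bp at Hoxa3, with a median of 3737 bp. Among the 14013 protein-coding genes within that range of lengths, 22.4% had a KCl island and 0.314% a basal island. The range reaches far above the median Hox gene, so these genes are not matched to the Hox genes in length. Gene bodies gave the same count, with 0 of 39 Hox genes holding a KCl island in the body or within 2 kb of it, against 32.7% of all protein-coding genes. The 39 genes sit side by side in 4 places and are not independent of each other, so the count is a description with no test.

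The absence of calls covered whole clusters. From the outermost Hox gene on one side to the outermost on the other, HoxA on chromosome 6 spans 106 kb with 11 Hox genes, HoxB 174 kb (chr11:96194316-96368254) with 10, HoxC 116 kb (chr15:102921131-103036856) with 9, and HoxD 96.9 kb (chr2:74668225-74765142) with 9. Together they cover 492 kb and hold 79.3 protein-coding genes per Mb, against 8.13 per Mb over all chromosomes. KCl islands numbered 0 in each of the 4 clusters, whereas the whole KCl list has 7.79 islands per Mb, a density that would place 3.83 islands in a length of 492 kb. Basal islands also numbered 0 in each cluster, and the basal density of 0.264 per Mb would place 0.130 there. The lists hold only islands that passed the authors' threshold, the fewest IP reads of any island being 20 in KCl and 18 in basal neurons. Reads outside islands inside the clusters were not available, and a missing call does not show that BRG1/BRM was absent.

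**Figure D1:**
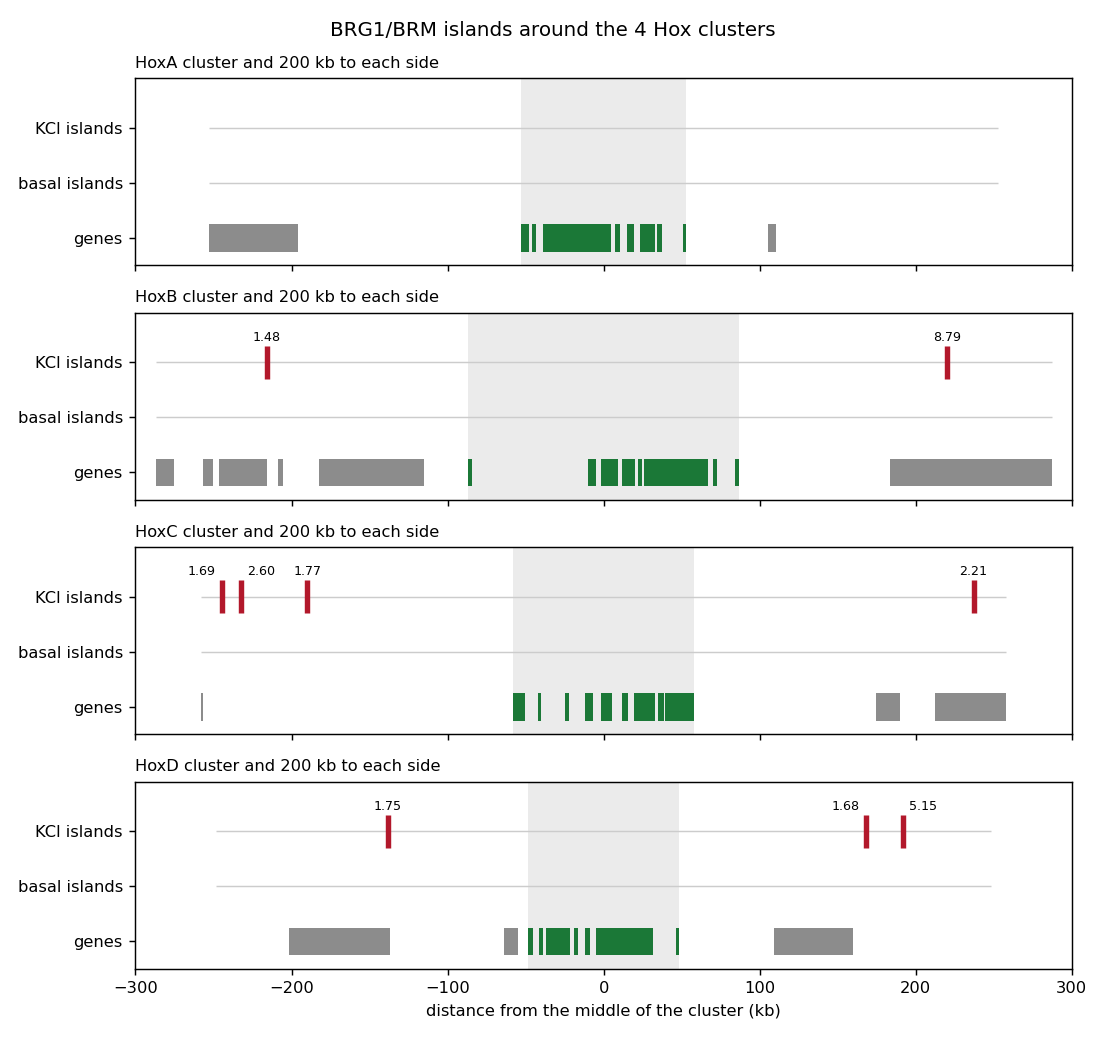
Islands and protein-coding genes in each Hox cluster (grey band) and 200 kb to each side, by distance from the middle of the cluster in kb. Red marks are KCl islands with the authors' fold over control above them, the basal row has no marks, green bars are Hox genes and grey bars other protein-coding genes. The 9 KCl islands all lie outside the grey bands, and HoxA has 0 on either side.

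The nearest KCl island lay 88.8 to 373 kb from an end of the Hox genes, with a median of 187 kb, against a median of 31.0 kb for the other protein-coding genes (interquartile range 1.88 to 111 kb). At the closest Hox gene, Hoxd13, 29.1% of the other genes were at least as far from a KCl island. Of all protein-coding genes, 16.4% were at least as far as Hoxc9, which stands at the median of 187 kb, and 8.98% as far as the farthest, Hoxa13. Distances followed position in the cluster. In HoxA they grew from 277 kb at Hoxa2, a gene of hindbrain patterning, to 373 kb at Hoxa13, a gene of limb and hindgut, since the same island, inside Skap2 on the low side, was the nearest throughout the cluster. In HoxB they ran from 128 kb at Hoxb13 to 213 kb at Hoxb8, and in HoxC from 132 kb at Hoxc13 to 203 kb at Hoxc6. HoxD genes were the closest, from 88.8 kb at Hoxd13, a gene of digit development, to 143 kb at Hoxd4. Both ends of a cluster were thus nearer to an island than its middle in HoxB, HoxC and HoxD.

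**Figure D2:**
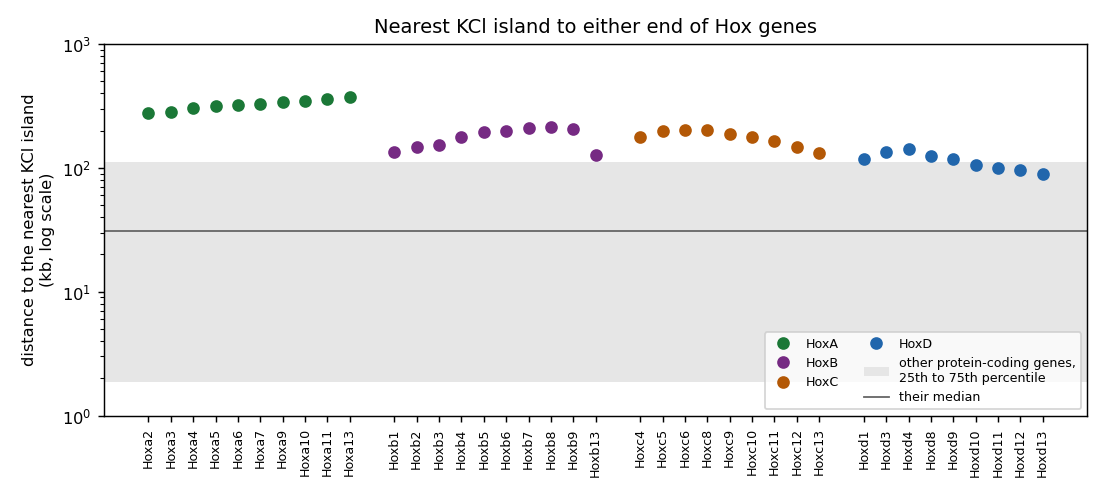
Distance in kb, on a log scale, between either end of the Hox genes and the nearest KCl island, with genes ordered by paralog number within each cluster (1 point per gene, with 1 HoxA gene not shown). The grey band and line give the interquartile range (1.88 to 111 kb) and median (31.0 kb) of the other protein-coding genes, and all HoxA, HoxB and HoxC points lie above the band.

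Basal islands, of which there are far fewer, lay farther from the Hox genes than KCl islands. The median distance to the nearest basal island was 602 kb for Hox genes, against 1931 kb for the other protein-coding genes. Of all protein-coding genes, 91.0% were at least as far from a basal island as Hoxc4 and 79.6% as far as Hoxa13, so HoxC and HoxA genes were nearer to one than most genes. For HoxD and HoxB the shares were lower, 32.5% at Hoxd13 and 25.9% at Hoxb13. The nearest basal island to HoxC was 237 kb from the cluster, inside Copz1, which encodes a coatomer subunit. It held 49 IP and 31 control reads, 1.80-fold enriched (95% exact interval 1.12 to 2.91, counting error only), and 0 KCl islands overlapped it. The nearest basal island to HoxA was 2.21-fold enriched [1.24 to 4.07] and was overlapped by a KCl island of 6.99-fold. For HoxD the nearest basal island was 3205 kb away and for HoxB 4154 kb, and each was overlapped by a KCl island. The HoxD one held 1220 IP and 1285 control reads, and the interval of its fold (1.08 [0.997 to 1.17]) included 1. The HoxB one held 33 IP and 13 control reads and was 2.88-fold enriched [1.48 to 5.97].

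Between one KCl island and the next, the list leaves 20945 island-free stretches with a median of 62.4 kb, and 80.6% of them hold 0 whole protein-coding genes. With 0 KCl islands inside, each Hox cluster lay in a single stretch, which must hold all its Hox genes and be longer than the cluster. The shortest cluster is 96.9 kb, so a stretch above the median length and rich in genes restates the count of 0. Only the length and the other genes beyond the cluster depend on the flanking islands. The HoxA stretch measured 776 kb and held 13 protein-coding genes, the other members being Evx1, a homeobox gene beside the cluster, and Hibadh, a valine catabolism gene. At least as long were 1.17% of all stretches for HoxA, 4.34% for HoxB, 4.55% for HoxC and 8.75% for HoxD. The HoxB stretch measured 435 kb and also held 13 genes, with Atp5g1, Calcoco2 and Ttll6 beside the Hox genes. The HoxC stretch measured 425 kb and held 10 genes, with the DNA repair gene Smug1. The HoxD stretch measured 304 kb and held 11 genes, with Evx2 and the mitochondrial import gene Mtx2. Stretches with at least 13 genes numbered 173 (0.826% of all), those with at least 11 numbered 238 (1.14%) and those with at least 10 numbered 285 (1.36%). Olfactory, vomeronasal and other chemosensory receptor genes made up at least 50% of the genes in 43 of the 285 stretches, so gene-rich stretches without an island occur at other loci too.

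The land around the clusters was not empty in KCl neurons. Within 200 kb to each side, 1600 kb in all, 9 KCl islands were called (5.62 per Mb) and 0 basal islands. Counted by distance, 1 of them lay in the first 100 kb outside a cluster (1.25 per Mb) and 8 lay between 100 and 200 kb. Farther out there were 8 from 200 to 300 kb, 7 from 300 to 400 kb and 11 from 400 to 500 kb. From 100 kb outward each step had at least 8.75 islands per Mb, above the density of the whole list. The nearest point of 7 other protein-coding genes lay within 100 kb of a cluster, and that of 9 lay between 100 and 200 kb.

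**Figure D3:**
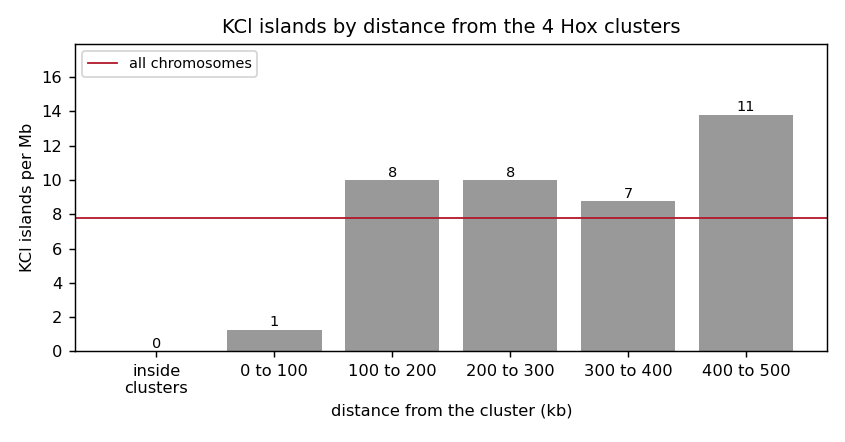
KCl islands per Mb inside the 4 Hox clusters and in steps of 100 kb outside them, both sides and all clusters together, with the number of islands above each bar. The red line is the density over all chromosomes (7.79 per Mb), and the bars inside and within 100 kb of the clusters are the ones below it.

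HoxD, whose digit and limb enhancers are known to lie in long gene-poor regions on both sides, had 3 of these islands. The closest to any cluster covered 1800 bp near the end of Lnpk, which encodes a protein of endoplasmic reticulum junctions (chr2:74577601-74579400, 64 IP and 23 control reads, 1.75-fold [1.07 to 2.95]). On the other side, an island 6.45 kb beyond Mtx2 held 83 IP and 31 control reads (1.68-fold [1.10 to 2.63]). One of 400 bp farther on, outside any gene, held 41 IP and 5 control reads and had a higher fold (5.15 [2.04 to 16.7]). The intervals of all 3 lie above 1.

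HoxC had 4 islands, 3 on the side of Hoxc13 and 1 on the side of Hoxc4. Those on the side of Hoxc13 overlapped long noncoding RNA genes. The widest of the 4, 4400 bp over Gm36510, held 110 IP and 41 control reads (1.69-fold [1.17 to 2.47]). The next covered Cistr, inside Gm36560, with 58 IP and 14 control reads (2.60-fold [1.43 to 5.05]). The third, also in Gm36560, was 1.77-fold with an interval that included 1 [0.979 to 3.35]. On the side of Hoxc4, an island inside Cbx5, the gene of heterochromatin protein HP1 alpha, held 74 IP and 21 control reads (2.21-fold [1.35 to 3.78]).

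HoxB had 2 islands. One, at an end of Ube2z, a ubiquitin-conjugating enzyme gene, held 40 IP and 17 control reads and its interval included 1 (1.48-fold [0.819 to 2.78]). The other, inside the adaptor gene Skap1, held 28 IP and 2 control reads (8.79-fold [2.22 to 76.2]), with a wide interval on few control reads. HoxA had 0 islands within 200 kb on either side. The island that bounds its stretch lies inside Skap2, the paralog of Skap1, with 161 IP and 25 control reads (4.04-fold [2.64 to 6.44]). Of the 16 protein-coding genes other than Hox genes that reach into these surroundings, 2 had a KCl island within 2 kb of an end (12.5%, against 25.2% of all protein-coding genes), Ube2z and Lnpk. Counting gene bodies as well, 5 of the 16 had one, with Skap2, Skap1 and Cbx5 added, against 32.7% of all protein-coding genes. Basal islands were at an end of 0 of the 16, against 0.411%. Evx1 and Evx2, the homeobox genes that flank HoxA and HoxD, lay 343 kb and 73.6 kb from the nearest KCl island.

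The clusters also hold noncoding genes. Of the 24 long noncoding RNA genes inside them, 0 had an island within 2 kb of an end in KCl or basal neurons, against 15.8% (KCl) and 0.432% (basal) of all long noncoding RNA genes. These include Hotair in HoxC, Hotairm1 in HoxA and Haglr in HoxD. The 6 microRNA genes in the clusters had 0 islands in either list, against 9.93% (KCl) and 0.407% (basal) of all microRNA genes, a lower background than that of protein-coding genes. Their nearest KCl islands were 147 kb (Mir10b), 184 kb (Mir10a and Mir196a-2), 199 kb (Mir196a-1), 200 kb (Mir615) and 345 kb (Mir196b) away. The mature sequences below, from RefSeq (GRCm38.p6) with the seed (bases 2 to 8) in capitals, show how the microRNAs repeat between clusters as the Hox genes do. The miR-10 pair from HoxB and HoxD shares one seed, the miR-196 sequences from HoxA, HoxB and HoxC share another, and miR-615 from HoxC has its own.
mmu-miR-10a-5p: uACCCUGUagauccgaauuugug
mmu-miR-10b-5p: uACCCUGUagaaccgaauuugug
mmu-miR-196a-5p: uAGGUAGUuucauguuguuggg
mmu-miR-196b-5p: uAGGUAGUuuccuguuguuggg
mmu-miR-615-3p: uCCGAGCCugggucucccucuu
The miR-196a-5p sequence is the product of both Mir196a-1 in HoxB and Mir196a-2 in HoxC.

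Promoter composition was examined next. RefSeq promoter windows, from 250 bases before to 50 after the start, were matched to 22 of the 39 Hox genes, 9 in HoxA, 3 in HoxB, 1 in HoxC and 9 in HoxD. These windows held 4 to 45 CpG (median 13.5) and 39.7 to 81.0% G and C (median 56.8%). Windows of 17470 other protein-coding genes had medians of 13.0 CpG and 56.3% G and C, so the Hox windows were not poor in CpG. The windows of Hoxb8, Hoxc4 and Hoxd10 lie inside the gene, so their CpG counts do not describe its outermost start. None of the 22 Hox genes had a KCl island within 2 kb of the start of the window's transcript or overlapping the window. The shares were 23.2% and 21.5% of the 17492 genes with a window. Among the other genes, the share with an island within 2 kb of the start was 6.09% with 0 to 9 CpG, 24.6% with 10 to 19, 37.3% with 20 to 29 and 50.4% with 30 or more. The Hox genes in these classes numbered 7, 6, 7 and 2, each with 0 islands.

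**Figure D4:**
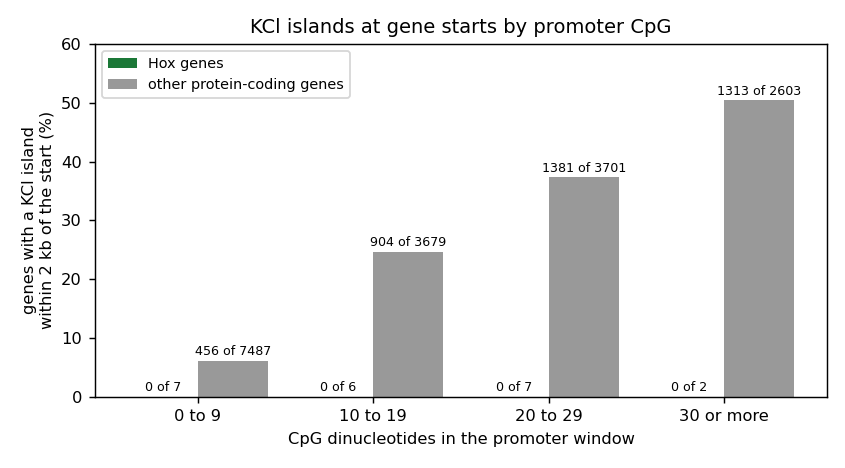
Share of genes with a KCl island within 2 kb of the start, by the number of CpG dinucleotides in the promoter window, for Hox genes (left in each pair) and other protein-coding genes (right). The share of the other genes runs from 6.09% to 50.4% across the classes, and the Hox bars are at 0 in each class.

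The windows below are the Hox window with the most CpG in each cluster, and that of Meis2, with CpG in capitals. Meis2 is a Hox cofactor gene with an island that overlaps part of its window. Hoxa13 (chr6:52260831-52261130, minus strand) has 45 CpG and 81.0% G and C. Hoxd13 (chr2:74667975-74668274, plus strand) has 37 CpG and 74.3% G and C. Hoxb4 (chr11:96318017-96318316, plus strand) has 14 CpG, and Hoxc4 (chr15:103034145-103034444, plus strand) has 9. Meis2 (chr2:116064570-116064869, minus strand) has 13 CpG, about as many as Hoxb4.
Hoxa13: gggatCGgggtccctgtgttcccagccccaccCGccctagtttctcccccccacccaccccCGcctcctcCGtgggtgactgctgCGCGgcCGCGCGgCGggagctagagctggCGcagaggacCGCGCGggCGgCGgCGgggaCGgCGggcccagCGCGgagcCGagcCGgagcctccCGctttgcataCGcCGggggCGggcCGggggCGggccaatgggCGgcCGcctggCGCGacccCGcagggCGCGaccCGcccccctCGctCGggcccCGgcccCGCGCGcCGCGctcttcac
Hoxd13: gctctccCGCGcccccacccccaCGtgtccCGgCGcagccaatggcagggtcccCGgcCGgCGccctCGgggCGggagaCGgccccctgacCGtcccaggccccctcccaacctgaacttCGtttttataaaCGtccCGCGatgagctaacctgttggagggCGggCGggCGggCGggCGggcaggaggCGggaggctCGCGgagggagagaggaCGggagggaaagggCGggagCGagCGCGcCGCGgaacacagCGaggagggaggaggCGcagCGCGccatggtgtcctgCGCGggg
Hoxb4: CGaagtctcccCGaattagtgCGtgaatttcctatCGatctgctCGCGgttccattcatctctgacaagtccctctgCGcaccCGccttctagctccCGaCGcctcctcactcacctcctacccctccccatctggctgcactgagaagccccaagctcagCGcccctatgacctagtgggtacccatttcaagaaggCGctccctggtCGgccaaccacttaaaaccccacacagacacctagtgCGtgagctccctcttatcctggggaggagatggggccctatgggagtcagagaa
Hoxc4: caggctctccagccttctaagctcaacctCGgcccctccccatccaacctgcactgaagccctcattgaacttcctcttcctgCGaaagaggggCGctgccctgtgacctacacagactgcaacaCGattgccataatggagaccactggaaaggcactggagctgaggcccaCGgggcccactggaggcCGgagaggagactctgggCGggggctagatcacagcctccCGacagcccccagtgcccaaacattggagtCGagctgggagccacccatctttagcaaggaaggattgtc
Meis2: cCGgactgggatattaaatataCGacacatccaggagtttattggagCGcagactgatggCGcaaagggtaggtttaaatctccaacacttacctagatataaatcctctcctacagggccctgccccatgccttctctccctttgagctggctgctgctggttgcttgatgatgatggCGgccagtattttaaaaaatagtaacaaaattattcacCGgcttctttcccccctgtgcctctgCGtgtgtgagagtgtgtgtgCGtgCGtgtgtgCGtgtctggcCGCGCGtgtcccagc
The KCl island that overlaps the Meis2 window (chr2:116064801-116068000) held 91 IP and 30 control reads and was 1.91-fold enriched [1.25 to 2.98]. It covers the outer end of the gene and reaches only the upstream edge of the window. Most of the sequence under this island is therefore not shown, and its CpG content was not compared with that of Hoxb4. The motifs searched in the 22 Hox windows each read the same on both strands. The cyclic AMP response element TGACGTCA was in 0 of them, against 2.35% of the other windows. The AP-1 motif TGANTCA and the homeodomain core TAATTA were each in 1, that of Hoxd11, against 7.09% and 4.68% of the others.

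Genes that work with or on Hox genes had KCl islands where the Hox genes had none. The TALE homeodomain proteins of the Pbx, Meis and Pknox families bind DNA together with Hox proteins, and 7 of 9 of their genes had a KCl island at an end (77.8%, against 25.2% of all protein-coding genes). The largest folds were those of Pbx3 (91 IP and 24 control reads, 2.38-fold [1.51 to 3.91]), Meis2 (2.37-fold [1.39 to 4.24], at an island other than the one that overlaps its window) and Pknox2 (2.25-fold [1.56 to 3.31]). Pbx4 and Meis3 had none. Of the Polycomb genes, 14 of 25 had one (56.0%). Among these were Eed, a subunit of the complex that methylates lysine 27 of histone H3, Cbx2, a chromobox reader of that mark, and Bmi1 (2.16-fold [1.26 to 3.89]) and Phc1 (2.14-fold [1.28 to 3.71]), whose products belong to the other main Polycomb complex. The Eed island rested on 28 IP reads and 1 control read (17.6-fold, interval from 2.91 to 719), and that of Cbx2 was 3.20-fold [1.61 to 7.08] with 51 IP and 10 control reads. Of the Trithorax and H3K27 demethylase genes 6 of 10 had one, led by the demethylase gene Kdm6b (1.79-fold [1.44 to 2.23]), with Rbbp5 (1.70-fold [1.05 to 2.84]) and the methyltransferase genes Kmt2a (1.62-fold [1.15 to 2.34]) and Kmt2b (1.61-fold [1.04 to 2.55]). The intervals of Pknox1, Ring1, Ezh2, Wdr5 and Kdm6a included 1. The background is higher for promoters rich in CpG. Of protein-coding genes other than Hox genes with at least 20 CpG in the window, 42.7% had a KCl island within 2 kb of the start. Polycomb genes with as many CpG numbered 16, and 9 of them had one (56.2%). For the cofactor genes the count was 1 of 2, and for the Trithorax and demethylase genes 3 of 3. Basal islands were at the ends of 0 genes in each of these lists, and at a background of 0.411% a count of 0 says nothing about lists of this size.

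Homeobox genes listed as cortical had KCl islands in most cases, and those listed under other regions in few. The lists were chosen with earlier results of these data known, and how widely each gene is expressed was not measured here. Of 16 homeobox genes that are active in cortical development or cortical neurons, 14 had a KCl island at an end (87.5%, against 25.2% of all protein-coding genes). The largest folds were those of Tshz3 (6.91-fold [2.51 to 26.5], 44 IP and 4 control reads), Cux1 (3.19-fold [2.08 to 5.06]), Zeb1 (2.75-fold [1.25 to 6.86]) and Adnp (1.97-fold [1.28 to 3.14]). The intervals of Emx2 (1.54-fold [0.968 to 2.50]), Emx1 (1.48-fold [0.914 to 2.47]) and Satb1 (1.48-fold [0.978 to 2.28]) included 1. Among 15 close relatives and neighbours of Hox genes, such as the ParaHox genes Gsx1, Pdx1 and Cdx2 and the hindbrain and spinal cord genes Gbx2 and Mnx1, 0 had one, against the same 25.2%. Among 56 homeobox genes best known from other regions or tissues, such as the Nkx, Irx, Lhx and Pitx families, 3 had one (5.36%, against 25.2%). These were Pitx3 (1.73-fold [1.04 to 3.01]), Dlx1 (1.55-fold [1.03 to 2.38]) and Irx5, whose interval included 1 (1.41-fold [0.896 to 2.26]). All these lists had 0 genes with a basal island at an end, again at the background of 0.411%. A count near 0 was therefore not particular to the Hox genes. The median distance to the nearest KCl island was 187 kb for Hox genes, 80.4 kb for the close relatives and 83.3 kb for the homeobox genes of other regions, a difference that was not tested. In the subset with at least 20 CpG in the window, 0 of 9 Hox genes, 0 of 3 close relatives and 0 of 19 homeobox genes of other regions had a KCl island within 2 kb of the start, against 6 of 7 cortical homeobox genes and 42.7% of the other protein-coding genes.

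**Figure D5:**
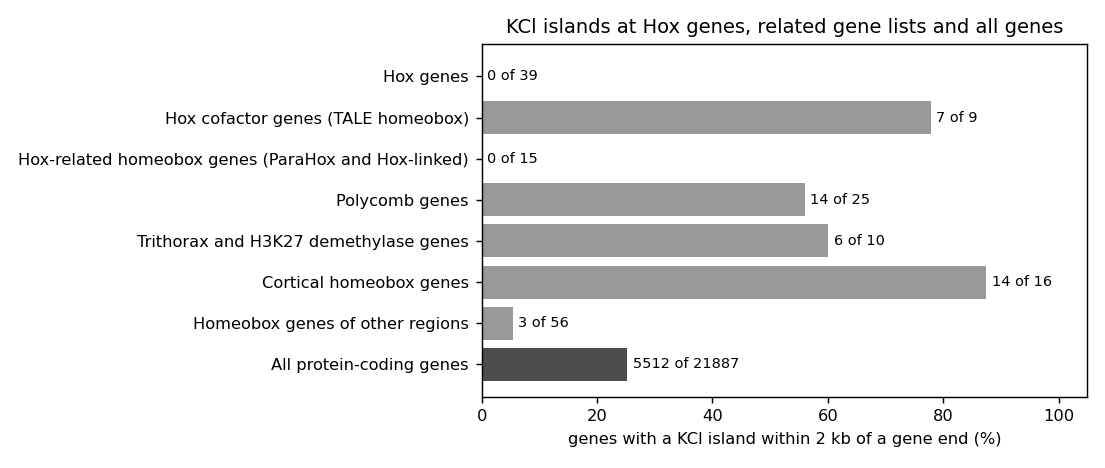
Share of genes with a KCl island within 2 kb of an end, for the Hox genes, 6 related lists and all protein-coding genes, with counts beside the bars. Hox genes and their close relatives are at 0, homeobox genes of other regions at 5.36%, cortical homeobox genes at 87.5% and all protein-coding genes at 25.2%.

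As a check of the labelled cell type, 13 of 15 cortical neuron marker genes had a KCl island at an end (86.7%, against 25.2% of all protein-coding genes). Astrocyte markers, with 4 of 10, were also above that share. Fibroblast and meninges markers, with 2 of 12 (16.7%), motor neuron and hindbrain markers, with 0 of 12, and microglia markers, with 0 of 10, were below it. The share of 25.2% is not adjusted for CpG. The 6 microglia genes with a promoter window had a median of 4.50 CpG. Of other genes with 0 to 9 CpG, 6.09% had a KCl island within 2 kb of the start. The microglia count of 0 therefore says little about cell type. With at least 20 CpG, 0 of 6 motor neuron and hindbrain and 2 of 3 cortical neuron markers had one, against 42.7%. The part of other cell types in the KCl list was not tested.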

How the data were processed

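ChIP-seq with the J1 anti-BRG1/BRM antibody was analysed for 2 IP samples of cultured mouse cortical neurons, 1 KCl and 1 basal. Files of the 2 input samples were not used here. Per the submitters' processing notes, reads were aligned with BWA (version not given in the sources used here) to mm10 (GRCm38), and SICER 1.0 called the islands. From the deposited file names, the window was 200 bp, the gap 600 bp and the FDR 0.01. Each list comes from 1 library, with no pooling. Each island has raw counts of IP and control reads, a p-value and an FDR, as deposited by the authors. The deposited fold is a ratio of IP to control scaled by a library constant, 1.59 for KCl and 0.880 for basal. Which input was the control is not stated in the labels.

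Genes came from RefSeq GRCm38.p6, which is the same build, on the chromosomes 1 to 19, X and Y. A gene was counted where an island reached within 2 kb of either end by at least 1 bp. The gene table gives no strand, so starts were taken only from RefSeq promoter windows, using the first window listed for a gene. Regions were the 4 clusters and 200 kb to each side. The interval of a fold is the 95% exact (Clopper-Pearson) interval of IP among IP and control reads, divided by the library constant. It covers counting error only, as reads carry no molecular identifiers, and does not allow for the selection of islands. Folds are used within a list. With 1 library per condition no test was run between conditions, and gene counts are set beside all genes with no test. For gene length, all genes within the Hox length range were counted, without matching the spread of lengths inside it.

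The members and lists were chosen with earlier results of these data known. Named were the Hox genes with an island at an end (none), flanking genes with one, and up to 4 members per list with the largest KCl fold, plus members with a basal island. Further list members were named where the interval of their fold included 1. Other Hox and noncoding genes were named for their position or distance, and the promoter windows for their CpG count, after values were seen. Values of some single genes are not reported here. The search was tested on simulated data. Alternatives were the distance, the FDR, the fold, the overlap, the width of the surroundings and gene starts only. Python 3.11.15, pandas 2.3.3 and scipy 1.17.1 were used.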

Additional observations from a re-analysis of the deposited data

How the results depend on the processing

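The count of 0 Hox genes with an island held in KCl and in basal neurons under the 8 alternatives run for each: island over the gene end, within 1 kb, within 5 kb, gene starts only for the 22 Hox genes with a window, gene body plus 2 kb, an FDR of at most 1e-05, a fold of at least 2, and 50% of the island inside. The share of all protein-coding genes with a KCl island was 8.74% with a fold of at least 2, 15.1% with an FDR of at most 1e-05 and 23.5% within 1 kb, and that with a basal island was 0.0731%, 0.0503% and 0.343%. Within 5 kb the counts over all protein-coding genes were 6346 (KCl) and 133 (basal). The count of 0 islands inside the 4 clusters was also 0 under its 3 alternatives in each list. Those 3, like the stricter settings for genes, can only remove islands, so a count of 0 could not change. The nearest islands lay 88.8 kb (KCl) and 237 kb (basal) from a Hox gene end, so a distance of 5 kb could not reach one. The unchanged counts of 0 are therefore no further evidence. Around the clusters, the 9 KCl islands became 4 with a fold of at least 2, 1 within 100 kb and 35 within 500 kb, and the 0 basal islands became 3 within 500 kb. These changes follow from fewer islands or another length. The planned median fold of KCl islands at Hox gene ends has no value under any setting, because there were 0 such islands. No paired analysis was possible because each condition has 1 IP library. The total depth of the libraries is unknown here, and occupancy under the calling threshold is not in either list.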
